A study of Mus musculus with 6 samples.

Results

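Collagen chains are the polypeptides that wind in groups of 3 into the collagens of the extracellular matrix. They were taken as every gene whose symbol has the form Col, a number, a and a number, and whose probe sets carry no other symbol in the array annotation. This gave 82 probe sets for 42 genes, of 45037 probe sets tested and 18193 genes with a symbol of their own. Of the 42 genes, 27 had more than 1 probe set.

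The 6 Affymetrix arrays came from mouse C2C12 myoblasts, a cell line that fuses into muscle fibres when it differentiates. In the PRDM2 KD group, the cells were a stable pool with an shRNA that targets PRDM2, a nuclear zinc finger protein. In the GFP control group they were a stable pool with a GFP shRNA, and each group had 3 arrays. Both pools had been kept for 48 hours in methylcellulose with 20% fetal calf serum, a culture that the labels describe as synchronizing cells in G0, the resting state. The labels call the arrays biological replicates without saying whether transfections were separate, so p-values measure only the spread between these samples.

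Each collagen is built from 3 chains that are hydroxylated and folded in the endoplasmic reticulum, trimmed outside the cell and then assembled. Some collagens form fibrils, some form the sheet of the basement membrane that surrounds muscle fibres, some form beaded microfilaments, and some bind to fibrils or cross the cell membrane. In muscle, collagen IV lies in the basement membrane, collagen VI links it to the interstitial matrix, and collagens I and III make the fibrils of the connective tissue around the fibres. Many collagens are mixtures of chains from different genes, so the chains of 1 trimer can be followed as partners.

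Values are the deposited array intensities, which have no unit, with means ± SD over 3 arrays. A difference is the log2 of PRDM2 KD over control on quantile normalized values with 16 added, and it passed when the limma p, Benjamini-Hochberg adjusted over all 45037 probe sets, was under 0.05. The arrays differed in their control signals. The ratio of the 5' to the 3' Gapdh control probe set was 0.704 to 0.977 on the PRDM2 KD arrays and 0.904, 1.14 and 0.0992 on control arrays 1 to 3. The 3' probe set of the bacterial Dap spike read 38.8 on PRDM2 KD array 3 and 39.9 on control array 3, against 126 to 254 on the other 4 arrays. Some differences are therefore also given without these 2 arrays and for them alone. Prdm2, the targeted gene, averaged 46.1 ± 15.2 in PRDM2 KD cells and 69.0 ± 20.0 in control cells at its probe set of highest mean, a log2 difference of -0.51 that did not pass (SE 0.216, limma adjusted p = 0.44). Another Prdm2 probe set averaged 37.5 ± 14.9 and 73.0 ± 39.2, a difference of -0.75 (limma adjusted p = 0.475). A further one, with means under 16 in both groups, differed by 0.10 (limma adjusted p = 0.773). All precision here is limited by having 3 arrays in each group.

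Marker genes of several cell types were read as well. Fewer cells of a type and less RNA per cell cannot be told apart in bulk RNA, and this holds for the markers too. All 6 markers of differentiated muscle were higher, with a summed intensity of 5239 to 6719 in PRDM2 KD cells and 106 to 241 in control cells. The 6 myoblast markers, of which 1, Myf5, was lower, summed to 4089 to 4663 in PRDM2 KD cells and 4795 to 5261 in control cells. Most of this sum was Vim, with means of 2917 in PRDM2 KD cells and 3315 in control cells. Myf5, with means of 67.5 and 178, hardly entered it. The summed fibroblast markers were 542 to 702 in PRDM2 KD cells and 238 to 536 in control cells, so the sums did not overlap, with 0 of 7 passing. Most of this sum was Pdgfra, with means of 381 in PRDM2 KD cells and 231 in control cells, and Dcn, with 178 and 103. Their log2 differences were 0.71 and 0.55 (limma adjusted p = 0.395 and 0.674), whereas Dpt and Cd248 differed by -0.20 and -0.08. Dpt and Lum had means under 5 in both groups. Cartilage markers summed to 151 to 217 in PRDM2 KD cells and 158 to 259 in control cells, nearly all of it Sox9. Bone markers summed to 74.0 to 95.7 in PRDM2 KD cells and 84.3 to 117 in control cells, with 0 of 4 passing. The 5 endothelial markers, all dim, summed to 17.0 to 23.2 in PRDM2 KD cells and 18.2 to 33.3 in control cells. The 4 adipocyte markers, of which 3 were dim, summed to 17.7 to 24.7 in PRDM2 KD cells and 9.94 to 24.3 in control cells. Of 3 Schwann cell markers, Pmp22 was higher, S100b lower and Sox10 did not pass. The part of the muscle markers' rise in the collagen changes was not tested.

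In the main fit, transcript was higher in PRDM2 KD cells for 2 of the 3 chains of collagen VI, Col6a1 and Col6a2. It was also higher for collagen IV chain Col4a1 and collagen I chain Col1a1, and lower for the minor fibrillar chain Col24a1. These calls depended on the settings. Of 19 alternatives that changed the processing or left out arrays, Col6a2 passed in 15 at its brighter probe set and Col6a1 in 12. Col1a1 and Col24a1 passed in 9 each and Col4a1 in 6. Of the 82 collagen probe sets 5 were higher, from 4 genes, and 1 was lower, whereas 76 did not pass. That is 6.1% higher and 1.22% lower, against 1.41% higher and 1.01% lower over all probe sets tested. The median difference of the 82 probe sets was 0.01, and that of all probe sets -0.01.

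Much of the family was dim in these cells. Both group means lay under an intensity of 16 for 48 of the 82 probe sets, and all probe sets of 21 genes were that dim. Of the 31 collagen probe sets with a mean of at least 16 over the 6 arrays, 5 were higher and 1 lower (16.1% and 3.23%), against 2.71% and 2.04% of all probe sets that bright. That mean includes the group where a gene is high, so these shares depend in part on the differences counted. The called probe set of Col1a1 averaged 76.7 in PRDM2 KD cells and 7.14 in control cells, and that of Col24a1 7.93 and 29.6. The values of the groups did not overlap at 12 collagen probe sets that were higher in PRDM2 KD cells and 11 that were lower, where 9.6% and 7.5% of all probe sets did so.

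**Figure D1:**
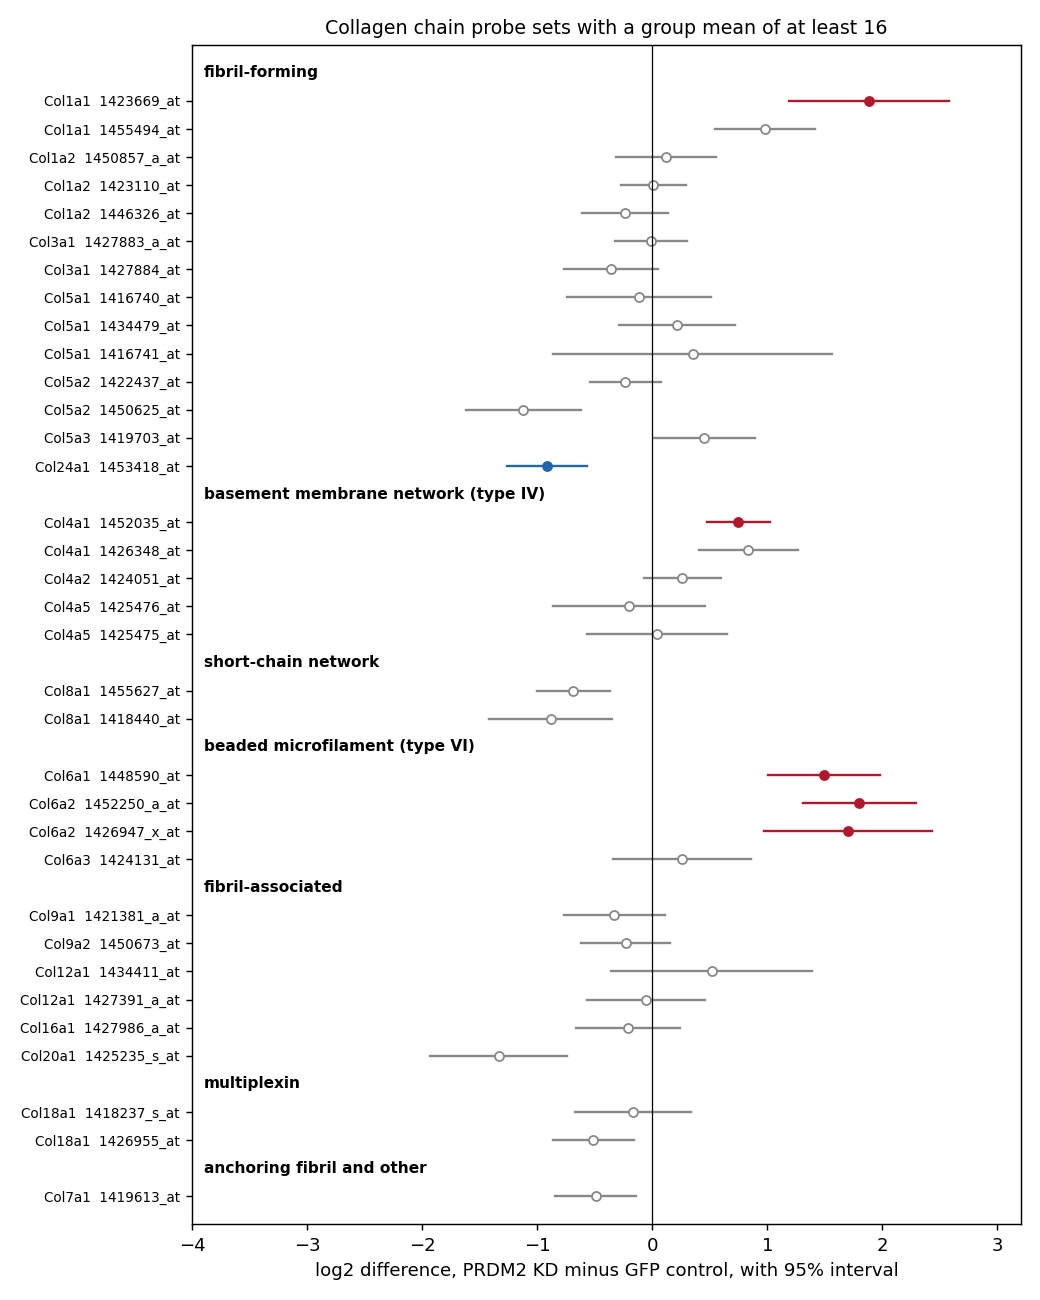
Log2 difference, PRDM2 KD minus GFP control (points), with its 95% interval from the limma fit before adjustment over probe sets (lines), for the 34 collagen chain probe sets with a group mean of at least 16, by structural class. Filled red points are the 5 higher and the filled blue point the 1 lower probe set that passed at a limma adjusted p under 0.05, and open points did not pass, 1 of them at -1.34 (Col20a1).

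The lowest adjusted p among the collagen probe sets was that of a chain of collagen VI. Col6a1 and Col6a2 encode the shorter chains of its trimer, and Col6a3 encodes the long chain that completes it. Col6a2 read 835, 544 and 864 on PRDM2 KD arrays 1 to 3 at its brighter probe set, against 186, 190 and 187 on control arrays 1 to 3. The lowest PRDM2 KD array was far above all 3 control arrays, which lay close together. The means were 748 ± 177 in PRDM2 KD cells and 188 ± 2.07 in control cells (SD, n = 3 each), and Col6a2 was 3.48-fold higher, a log2 difference of 1.80 (SE 0.203, limma adjusted p = 0.0106). Its other probe set, of a kind (x_at) whose probes may bind other transcripts too, read 529, 318 and 726 in PRDM2 KD cells, against 124, 138 and 141 in control cells. It rose by 1.70 (SE 0.301, limma adjusted p = 0.0472).

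Col6a1 read 1521, 1319 and 1778 in PRDM2 KD cells, against 529, 699 and 352 in control cells. The groups did not overlap, and control array 3 was the lowest of the 6. The means were 1539 ± 230 in PRDM2 KD cells and 526 ± 173 in control cells (SD, n = 3 each), a rise of 1.49 or 2.82-fold (SE 0.201, limma adjusted p = 0.0185). Col6a3 read 543, 496 and 737 in PRDM2 KD cells, against 450, 682 and 319 in control cells. These values overlapped, and the log2 difference of Col6a3, 0.26, did not pass (95% interval -0.34 to 0.86, limma adjusted p = 0.813). On replicates 1 and 2, the 4 arrays with more spike signal, the differences were 1.20 for Col6a1, 1.73 for Col6a2 and -0.09 for Col6a3, and on the replicate 3 arrays they were 2.08, 1.94 and 0.96. Col6a4 and Col6a5, which encode chains that can stand in for the long chain, stayed between 0.894 and 9.19 on all arrays.

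These calls did not hold without some of the arrays. Leaving out each array in turn, Col6a2 differed at its brighter probe set by 1.66 to 2.02 with a limma adjusted p of 0.00863 to 0.0654, and did not pass without control array 1 (0.0565) or PRDM2 KD array 1 (0.0654). Its other probe set passed only without PRDM2 KD array 2 (0.0302) among these 6 fits. Col6a1 differed by 1.33 to 1.66, passed without control array 2 (0.0165) or 3 (0.0493), and did not pass without control array 1 (0.0875) or PRDM2 KD array 1, 2 or 3 (0.0913, 0.0541 and 0.0726). Of all alternative settings, Col6a2 passed in 15 of 19 at its brighter probe set and in 8 of 18 at the other, and Col6a1 in 12 of 19. With the Gapdh ratio as a covariate the brighter Col6a2 probe set (log2 difference 1.87, limma adjusted p = 0.0242) and Col6a1 (1.36, 0.0301) passed, and the other Col6a2 probe set did not (1.79, 0.0819).

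Col6a1 and Col6a2 are neighbouring protein-coding genes in the RefSeq table, on the same strand of chromosome 10, and Col6a3 lies on chromosome 1. The 250 bases before the start of each are shown, because 2 of these 3 partner genes rose and Col6a3 did not pass. Those of Col24a1, the chain whose fall passed, are shown as well. Sequences are from RefSeq on GRCm38.p6 and run 5′ to 3′. Capitals mark matches on either strand to the GC box GGGCGG, to the CCAAT box, to the TATA box spelled TATAAA and to the E box CANNTG, which myogenic bHLH factors bind, and no other motif was searched.
Col6a1, chr10:76726045-76726294, minus strand: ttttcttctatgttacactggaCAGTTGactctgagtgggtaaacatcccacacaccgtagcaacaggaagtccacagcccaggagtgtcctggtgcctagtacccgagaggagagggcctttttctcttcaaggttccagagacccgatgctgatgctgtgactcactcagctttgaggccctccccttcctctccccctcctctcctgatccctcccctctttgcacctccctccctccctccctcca
Col6a2, chr10:76623631-76623880, minus strand: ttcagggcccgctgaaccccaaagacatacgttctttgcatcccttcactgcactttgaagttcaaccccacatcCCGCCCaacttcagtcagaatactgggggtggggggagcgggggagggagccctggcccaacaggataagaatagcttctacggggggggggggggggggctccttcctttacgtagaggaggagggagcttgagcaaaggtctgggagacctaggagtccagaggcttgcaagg
Col6a3, chr1:90843972-90844221, minus strand: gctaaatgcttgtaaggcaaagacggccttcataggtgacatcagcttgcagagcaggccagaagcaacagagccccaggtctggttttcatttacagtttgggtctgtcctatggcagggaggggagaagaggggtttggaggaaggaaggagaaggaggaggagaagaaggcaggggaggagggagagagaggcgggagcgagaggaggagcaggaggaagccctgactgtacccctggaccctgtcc
Col24a1, chr3:145292222-145292471, plus strand: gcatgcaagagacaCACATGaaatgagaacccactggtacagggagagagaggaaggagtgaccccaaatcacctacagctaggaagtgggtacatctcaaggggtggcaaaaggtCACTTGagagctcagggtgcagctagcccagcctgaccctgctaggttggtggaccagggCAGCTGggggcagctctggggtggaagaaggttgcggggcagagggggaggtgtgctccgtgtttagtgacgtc

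The Col6a1 window holds 1 E box, which starts 228 bases before the gene's start. The Col6a2 window holds 1 GC box and the Col6a3 window holds 0 of the 4 motifs. The Col24a1 window holds 3 E boxes, starting between 236 and 74 bases before the start. An E box was in 66.2% of the 32851 RefSeq promoter windows of this length and in 18 of the 35 collagen windows, counting 1 window per gene, the outermost. A GC box was in 32.7% and in 21 of 35, CCAAT in 33.8% and in 12 of 35, and a TATA box in 12.4% and in 5 of 35. These are matches of letters and say nothing of binding.

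In collagen IV 1 chain passed, with a smaller rise than those of collagen VI. Col4a1 and Col4a2 encode the chains of the main collagen of basement membranes, and their genes start beside each other on opposite strands, with RefSeq windows of 300 bases that share 78 bases. Col4a1 read 373, 343 and 356 in PRDM2 KD cells, against 241, 200 and 151 in control cells, at its brighter probe set. The groups did not overlap, and the PRDM2 KD arrays lay close together. Col4a1 rose by 0.75, or 1.68-fold (SE 0.114, 95% interval 0.47 to 1.02, limma adjusted p = 0.028). Its other probe set read 366, 233 and 302 in PRDM2 KD cells, against 144, 192 and 118 in control cells, with a log2 difference of 0.83 that did not pass (limma adjusted p = 0.0841). Col4a2 read 283, 216 and 293 in PRDM2 KD cells, against 224, 238 and 156 in control cells. The groups overlapped, and the log2 difference of Col4a2, 0.26, did not pass (95% interval -0.08 to 0.59, limma adjusted p = 0.597).

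Without each array in turn, Col4a1 differed at its brighter probe set by 0.66 to 0.85. It passed without control array 1 (limma adjusted p = 0.0359) and not without control array 2 or 3 (0.076 and 0.0722) or PRDM2 KD array 1, 2 or 3 (0.131, 0.1 and 0.115). It passed in 6 of 19 alternative settings, and the call also ended after median centring (limma adjusted p = 0.0532), without scaling (0.0721), with an added 1 (0.249), with trended and robust variances (0.0815) and with the Gapdh ratio as a covariate (log2 difference 0.69, 0.0561). Col4a5, which with Col4a6 and with Col4a3 and Col4a4 makes the other collagen IV trimers, had means of 101 ± 28.4 in PRDM2 KD cells and 115 ± 46.2 in control cells (log2 difference -0.20). Col4a3, Col4a4 and Col4a6 stayed at or under 17.0 on all arrays.

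Among fibril-forming collagens, the chains of collagen I behaved differently at these probe sets. Col1a1 encodes the chain that is in most collagen I trimers more than once, and 1 of its 2 probe sets was dim in control cells. At its probe set of highest mean over the 6 arrays it read 87.5, 38.5 and 104 in PRDM2 KD cells, against 8.97, 6.55 and 5.92 in control cells. In control cells this was the dimmer of the 2, with a mean of 7.14 against 21.1, so its rank rests on the PRDM2 KD arrays. Each PRDM2 KD array was above each control array, although PRDM2 KD array 2 stood well below the other PRDM2 KD arrays. It rose by 1.89, or 3.69-fold (SE 0.288, limma adjusted p = 0.0281), a change that the added 16 understates where the control is near background. Its other probe set read 56.7, 61.5 and 56.6 in PRDM2 KD cells, against 30.7, 14.3 and 18.3 in control cells, and its difference of 0.98 did not pass (limma adjusted p = 0.0527). That other probe set passed after median centring (limma adjusted p = 0.0346), without scaling (0.0376) and with trended and robust variances (0.0383). It also passed among probe sets with a mean of at least 16 (0.0318) and without control array 1 (0.0339), and not in the remaining settings that held it. Without each array in turn, the probe set of highest mean differed by 1.65 to 2.22 and passed only without PRDM2 KD array 2 (limma adjusted p = 0.00778). The adjusted p was 0.13 without PRDM2 KD array 1 and 0.0887 without PRDM2 KD array 3. Without control array 1, 2 and 3 it was 0.101, 0.074 and 0.1. The same probe set passed in 9 of 19 alternative settings. It did not pass with an added 64 (log2 difference 0.92, limma adjusted p = 0.114) or with the Gapdh ratio as a covariate (1.88, 0.0737).

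Col1a2, the partner chain, read 2456, 2213 and 2318 in PRDM2 KD cells, against 1897, 2836 and 1547 in control cells. The values overlapped, and the difference was 0.12 (95% interval -0.31 to 0.56, limma adjusted p = 0.889). Its other probe sets differed by 0.01 and -0.24 without passing. Col3a1, whose chain makes collagen III on its own, had means of 3673 ± 252 in PRDM2 KD cells and 3626 ± 636 in control cells (SD, n = 3 each), with differences of -0.01 and -0.36 at its 2 probe sets.

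**Figure D2:**
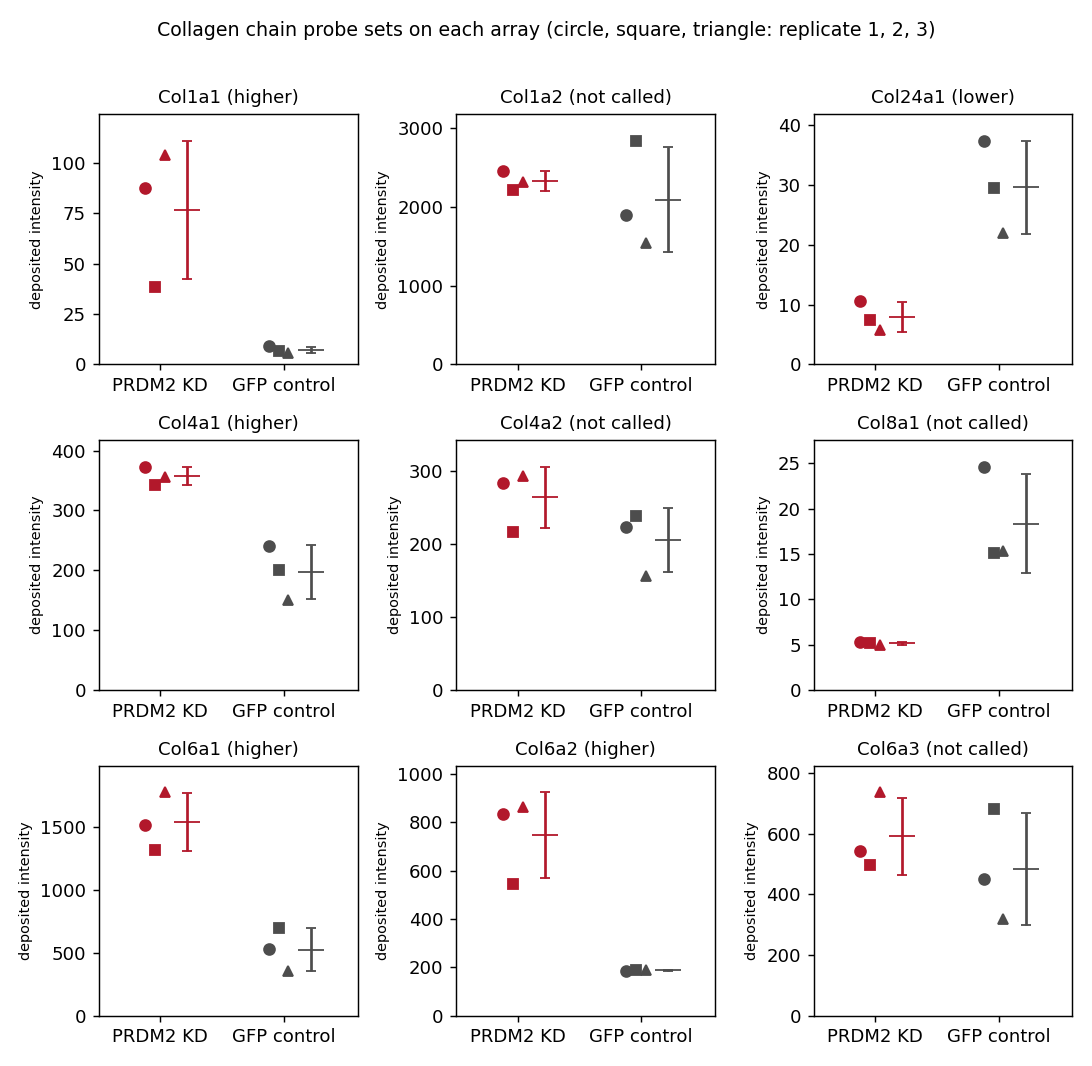
Deposited intensity of 9 collagen chain probe sets on each array, PRDM2 KD left of GFP control, with the mean and SD (n = 3) beside the points and each vertical axis starting at 0. The word in brackets is the limma call. The groups do not overlap for Col1a1, Col24a1, Col4a1, Col8a1, Col6a1 and Col6a2, and they overlap for the partner chains Col1a2, Col4a2 and Col6a3.

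Collagen V is built into fibrils with collagen I and limits their width. Col5a1 had means of 552 ± 192 in PRDM2 KD cells and 542 ± 34.0 in control cells, and its 3 probe sets differed by -0.12, 0.21 and 0.35 without passing. The probe sets of Col5a2 did not give the same size of difference. At the dimmer one, Col5a2 read 164, 199 and 121 in PRDM2 KD cells, against 437, 368 and 249 in control cells, a difference of -1.12 with groups apart (limma adjusted p = 0.0529). That probe set passed in 4 of the 18 alternative settings that held it, always lower. At the brighter one it read 1437, 1490 and 1288 in PRDM2 KD cells, against 1948, 1697 and 1212 in control cells, a difference of -0.24 with overlapping groups (limma adjusted p = 0.599). Col5a3 had means of 124 ± 27.7 in PRDM2 KD cells and 80.2 ± 19.9 in control cells, a difference of 0.45 that did not pass (limma adjusted p = 0.413).

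Col24a1, a minor fibrillar chain known from bone and cornea in the mouse, was the 1 collagen chain whose fall passed. It read 10.6, 7.47 and 5.72 in PRDM2 KD cells, against 37.3, 29.5 and 21.9 in control cells, so that the groups did not overlap and all 3 PRDM2 KD arrays lay under 16. The log2 difference was -0.92, 1.89-fold lower (SE 0.144, limma adjusted p = 0.0308), and it was -0.93 on replicates 1 and 2 and -0.89 on the replicate 3 arrays. Leaving out any 1 of the 6 arrays gave -0.80 to -1.02 with a limma adjusted p of 0.0595 to 0.125, so it passed in none of these 6 fits. It passed in 9 of 19 alternative settings, and not with an added 64 (-0.38, limma adjusted p = 0.0765) or with the Gapdh ratio as a covariate (-0.97, 0.056). Col2a1, Col11a1, Col11a2 and Col27a1, fibrillar chains known from cartilage, stayed at or under 13.5 on all arrays.

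Other chains were lower in PRDM2 KD cells without passing. Col8a1, a short chain of the network collagens of blood vessels and cornea, read 5.24, 5.17 and 4.97 in PRDM2 KD cells, against 24.6, 15.1 and 15.4 in control cells (log2 difference -0.69, limma adjusted p = 0.0607). A further probe set of Col8a1 differed by -0.89 with groups apart (limma adjusted p = 0.141), and another was at or under 3.04 on all arrays. Col20a1, a fibril-associated chain, read 8.90, 7.36 and 2.92 in PRDM2 KD cells, against 53.2, 25.6 and 43.0 in control cells, at an s_at probe set, a difference of -1.34 (limma adjusted p = 0.053). The suffix marks one whose probes can match more than 1 transcript, and the other 3 probe sets of Col20a1 were at or under 10.9 on all arrays.

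Under the alternative settings Col20a1 passed in 8 of 19 and Col8a1 in 4 of 18, always lower, among them Col20a1 without control array 2 (limma adjusted p = 0.0104). Col18a1, a basement membrane collagen that is cut to give endostatin, averaged 353 ± 64.9 in PRDM2 KD cells and 483 ± 52.1 in control cells at the dimmer of its probe sets (log2 difference -0.51, limma adjusted p = 0.193). At its other probe set the difference was -0.17. Col7a1, the chain of the anchoring fibrils of skin, averaged 24.8 ± 5.55 in PRDM2 KD cells and 39.9 ± 2.74 in control cells, with a difference of -0.49 (limma adjusted p = 0.215).

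The fibril-associated collagens, which decorate fibrils, held no probe set that passed among 24. Col12a1, which is made in tendon and muscle connective tissue, read 857, 459 and 470 in PRDM2 KD cells, against 518, 507 and 194 in control cells. The groups overlapped, with control array 3 lowest (log2 difference 0.51, 95% interval -0.36 to 1.39, limma adjusted p = 0.728). Col16a1 averaged 124 ± 19.4 in PRDM2 KD cells and 135 ± 21.2 in control cells (log2 difference -0.21). Col9a1 and Col9a2, chains of cartilage collagen IX, differed by -0.33 and -0.23 without passing. The 4 genes of transmembrane collagens, Col13a1, Col17a1, Col23a1 and Col25a1, stayed at or under 16.2 on all arrays. The 21 genes whose probe sets were all dim, with 40 probe sets in all, read 0.268 to 20.9 and differed by -0.17 to 0.26.

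Within a trimer, the partner chains can be set against each other on each array, which removes what affects both probe sets alike. The log2 difference between Col6a1 and Col6a3 was 1.23 larger in PRDM2 KD cells than in control cells, and that between Col6a2 and Col6a3 was 1.54 larger. For Col1a1 against Col1a2 the shift was 1.76, and for Col4a1 against Col4a2 it was 0.49. In these 4 pairs the 3 PRDM2 KD arrays lay above the 3 control arrays. Each had an exact two-sided permutation p of 0.1, the smallest that 3 arrays against 3 can give, and 0.15 after adjustment over the 6 pairs compared. Col6a1 against Col6a2 shifted by -0.31 and Col5a1 against Col5a2 by 0.12, both with overlapping groups (exact permutation p = 0.4 and 0.8). Each chain was read at its probe set of highest mean, which for Col1a1 was the one with the larger rise. The pairs were chosen with the values known, so these p-values only describe them. Those of collagen VI share probe sets, so the 6 pairs are not independent. With the other probe sets that were not dim, the shift was 0.86 to 2.12 for Col1a1 against Col1a2, 0.58 for Col4a1 against Col4a2 and 1.44 for Col6a2 against Col6a3, all with groups apart. The pair of collagen V depended on the probe set: against the dimmer one of Col5a2, the 3 probe sets of Col5a1 shifted by 1.01, 1.34 and 1.47, with groups apart in 1 of the 3, and these values were not tested.

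**Figure D3:**
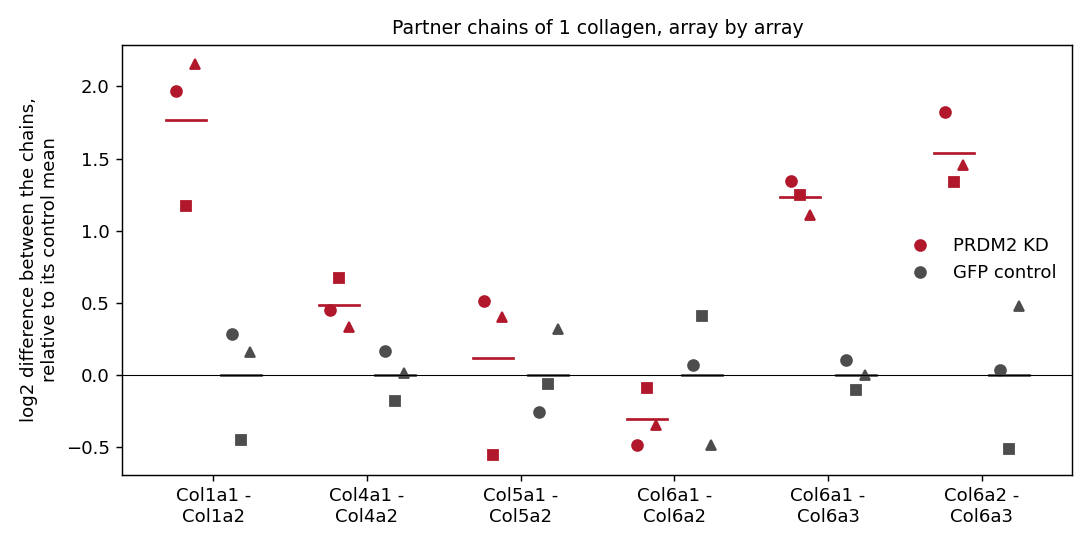
Log2 difference between the probe sets of 2 chains on the same array, minus the mean of that difference over the control arrays, for 6 pairs of partner chains. Red points are PRDM2 KD arrays, grey points GFP control arrays (circle, square and triangle for replicates 1, 2 and 3), and short lines are means of 3. The groups are apart for Col1a1 and Col1a2, Col4a1 and Col4a2, and both pairs with Col6a3.

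Genes that make or handle collagen were read at 1 probe set each, the one of highest mean. Of 72 measured genes in 7 lists, 7 were higher, 1 was lower and 64 did not pass, with a median difference of 0.13. Over all 18193 genes read in the same way, 2.28% were higher and 1.64% lower, and the median was -0.00388. That background is not matched for brightness. Of the 72 genes 17 were dim, whereas 55.1% to 58.2% of all probe sets on each array read under 16. Among all probe sets with a mean of at least 16 the shares were 2.71% and 2.04%. Among enzymes that hydroxylate or glycosylate collagen, 3 of 15 were higher. Plod1, a lysyl hydroxylase, read 435, 340 and 530 in PRDM2 KD cells, against 165, 188 and 103 in control cells, and rose by 1.37 (SE 0.207, limma adjusted p = 0.0269). Crtap, which forms a complex with a prolyl 3-hydroxylase, read 751, 629 and 947 in PRDM2 KD cells, against 338, 273 and 265 in control cells, and rose by 1.28 (SE 0.182, limma adjusted p = 0.0228). P3h3, a member of the prolyl 3-hydroxylase family, averaged 27.5 ± 8.71 in PRDM2 KD cells and 4.76 ± 1.62 in control cells, and rose by 1.04 (limma adjusted p = 0.0335). In all 3 genes the groups were apart. Without each array in turn (limma adjusted p), Plod1 passed without control array 2 (0.0405) or PRDM2 KD array 2 (0.0496) and not without the other 4 (0.0736 to 0.12). Crtap passed without PRDM2 KD array 2 (0.0402) or 3 (0.0443) and not without the other 4 (0.0577 to 0.1), and P3h3 passed only without PRDM2 KD array 2 (0.0239; otherwise 0.0837 to 0.138). Plod2, another lysyl hydroxylase that was picked after its values were seen, read 325, 652 and 508 in PRDM2 KD cells, against 1100, 1133 and 775 in control cells, and its difference of -1.10 did not pass (limma adjusted p = 0.11).

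Among chaperones and secretion factors 1 of 12 was higher. This was Fkbp9, a prolyl isomerase of the endoplasmic reticulum, which rose by 0.64 at an x_at probe set (SE 0.0984, limma adjusted p = 0.0292). Of the fits without 1 array it passed in the one without control array 3 (0.034), and the other 5 gave 0.0759 to 0.137. The other probe set of Fkbp9 differed by 0.93 with groups apart and did not pass (limma adjusted p = 0.0804). Tmem38b, an ion channel of the same compartment, did not pass at its probe set of highest mean (log2 difference 0.33), but 2 of its other probe sets did, with 1.06 and 1.38, which was seen after the values were known. Among 7 proteins that trim procollagen, Adamts3, a procollagen N-proteinase, read 66.9, 54.2 and 50.8 in PRDM2 KD cells, against 13.9, 23.5 and 16.3 in control cells. It rose by 1.10 (SE 0.12, limma adjusted p = 0.00911). Adamts3 passed without each of the 6 arrays (0.0162 to 0.0492). Its other probe set was near background and differed by -0.07. None of 5 cross-linking enzymes passed, and the largest differences were those of the transglutaminase Tgm2 and the lysyl oxidase Loxl3, 0.84 and 0.81 (limma adjusted p = 0.285 and 0.0988).

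Of 11 matrix proteins that bind collagen fibrils 2 were higher. Biglycan, Bgn, a small proteoglycan, read 2128, 1403 and 2159 in PRDM2 KD cells, against 430, 680 and 472 in control cells. It rose by 1.75 (SE 0.236, limma adjusted p = 0.0188), and its other 2 probe sets rose by 2.29 and 2.38. The first of these 3 probe sets passed without control array 2 (0.0287) or PRDM2 KD array 2 (0.0299) and not without the other 4 arrays (0.0674 to 0.0992). Aspn, the related asporin, averaged 20.0 ± 5.84 in PRDM2 KD cells and 4.91 ± 2.02 in control cells at an s_at probe set. Its rise of 0.78 there passed narrowly (limma adjusted p = 0.0498). It passed without PRDM2 KD array 3 (0.0434) and not without any of the other 5 arrays (0.111 to 0.195). The other probe set of Aspn differed by 0.53 with groups apart and did not pass (limma adjusted p = 0.155). Of 12 receptors of collagen 1 was lower and none higher. Cspg4, the NG2 proteoglycan, which binds collagen VI, read 75.8, 64.8 and 77.8 in PRDM2 KD cells, against 156, 136 and 140 in control cells, and fell by 0.94 (SE 0.109, limma adjusted p = 0.0114). It did not pass without control array 1 (0.0641) or PRDM2 KD array 1 or 2 (0.0655 and 0.0514), and did without the other 3. Its other probe set differed by -0.68 with overlapping groups (limma adjusted p = 0.139). None of 10 collagen-degrading proteases passed, with the largest differences at Mmp9 and Mmp2, 0.68 and 0.42 (limma adjusted p = 0.178 and 0.225).

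**Figure D4:**
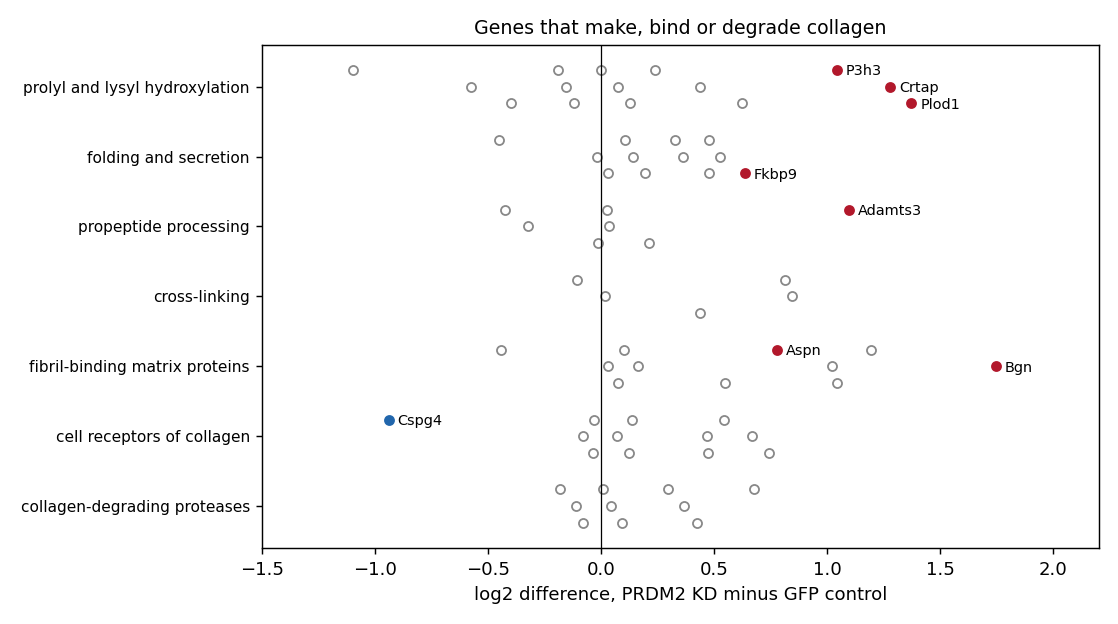
Log2 difference, PRDM2 KD minus GFP control, of 72 genes that make, bind or degrade collagen, 1 point per gene and list, with points spread vertically only to keep them apart. Filled red points (7 genes, Bgn at 1.75 the farthest right) and the filled blue point (Cspg4 at -0.94) passed at a limma adjusted p under 0.05, and open points did not.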

How the data were processed

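Biotin-labelled cRNA from 8 µg of total RNA was hybridized, per the labels' protocols. The authors deposited a table of linear intensity values, 1 per probe set and array. Per the submitters' processing notes GCOS and PLIER were used, and their settings are not given in the sources used here. Each array had 45101 probe sets, and 0 columns belonged to no sample. Of the probe sets 64 were controls and left out, and 34945 of the others had 1 symbol, 932 several and 9160 none.

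Here, intensities were quantile normalized, transformed as log2(intensity + 16) and fitted with lmFit and eBayes in R 4.3.3 with limma 3.58.1. The offset understates changes of dim genes. Means ± SD are of deposited intensities, so a difference need not equal their ratio. The members and lists were chosen with earlier results of these data known. Values are given for collagen genes with a called probe set or with a group mean of at least 16 at the probe set of highest mean. From each list up to 4 called genes are named, or 2 where none was called. The test was tried on simulated data. A total of 19 alternatives were run.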

Additional observations from a re-analysis of the deposited data

How the results depend on the processing

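Every alternative was run on the whole table, and counts below are collagen probe sets higher and lower, then collagen-handling genes higher and lower, against 5 and 1, then 7 and 1, as reported. They were 5 and 2, 8 and 1 after median centring, 5 and 2, 7 and 1 without scaling, 4 and 4, 5 and 0 with an added 1, and 3 and 0, 3 and 1 with an added 64. They were 6 and 3, 7 and 2 among probe sets with a mean of at least 16, 5 and 5, 8 and 2 with trended and robust variances, 6 and 5, 10 and 3 with array weights, and 4 and 3, 10 and 1 with 1 probe set per gene. With the arrays of low spike signal as a block they were 5 and 2, 6 and 2, and with the Gapdh ratio as a covariate 2 and 0, 2 and 1. That covariate ended the calls of Col1a1, Col4a1, Col24a1 and the dimmer Col6a2 probe set, and Col4a1 was also not among the probe sets that passed after median centring, without scaling, with an added 1 or with trended and robust variances. Ordinary statistics without eBayes gave 0 and 0 in both lists (9 and 9 collagen probe sets at an unadjusted p under 0.05), as did the 4 arrays of higher spike signal (8 and 8). Over all probe sets 1094 passed as reported, 157 with ordinary statistics, 183 on those 4 arrays and 1987 with array weights. The median collagen difference was 0.0326 after median centring and 0.0443 with an added 1.

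Without each array in turn, 0 to 3 collagen probe sets were higher and 0 to 1 lower, 1 to 8 handling genes were higher and 0 to 1 lower, 384 to 902 probe sets passed, and the median was -0.0157 to 0.0142. No collagen probe set passed without PRDM2 KD array 1. Every named difference called as reported kept its sign in all alternatives. A total of 9 sign changes, in 5 genes, were among differences called in neither setting, and the causes were not tested. With the replicate number as a block 1 and 1 collagen probe sets, 2 and 1 handling genes and 584 probe sets passed. Deviations from the group means correlated at 0.364, 0.0962 and 0.00551 between arrays of the same number, and at -0.394 to 0.231 between arrays of different numbers. The main fit did not take the numbers as pairs, and these values do not settle whether they are. Dim signal limits what can be seen for the 48 dim probe sets, and 3 arrays in each group limit all calls.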
